A study of Ovis aries with 15 samples.

Results

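On the sheep autosomes, 2606 regions enriched for H3K27ac in the fat around the kidney also overlapped a region of H3K27me3 and a region of H3K4me3. They were taken from the deposited region tables of the 3 marks: an H3K27ac region on chromosomes 1 to 26 was included where it shared at least 1 bp with a region of each of the other marks. They made up 3.02% of the 86246 autosomal H3K27ac regions and were drawn from 87272 H3K27ac regions in all. Of the remaining autosomal H3K27ac regions, 31311 overlapped H3K4me3 alone, 1192 overlapped H3K27me3 alone and 51137 overlapped neither.

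The study sequenced chromatin from the perirenal fat of purebred merino lambs and fetuses, both wild type and given no treatment according to the labels. The age of the lambs is stated as 80 days after birth in one place and as 89 ± 7 days in another, and the fetuses were at 132 ± 1 days of gestation, with term at 150 days. H3K27ac and H3K27me3 were measured in 2 lambs and 2 fetuses and H3K4me3 in 3 lambs and 2 fetuses, and by their identifiers lambs 1 and 2 and fetuses 1 and 2 each gave chromatin for every mark. Sex is not in the labels, and the titles of the lamb libraries alone carry the tag VEH, so whatever it stands for cannot be told apart from stage.

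Acetylation of lysine 27 of histone H3 is found at active promoters and enhancers, whereas trimethylation of the same lysine is laid down by Polycomb complexes at genes that are held silent. A single histone tail cannot carry both at that lysine, so reads of both at 1 place can come from different nucleosomes, alleles or cells. H3K4me3 marks promoters, and its presence together with H3K27me3 is known as bivalent chromatin, which is typical of developmental genes. Perirenal fat of sheep is largely brown fat before birth and becomes white fat in the weeks after. The samples were whole tissue, in which fewer cells of a type and less of a mark per cell cannot be told apart.

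The regions were short, from 550 to 19300 bp with a median of 1300 bp, against medians of 1800 bp for H3K27ac regions with H3K4me3 alone and 1000 bp for those with H3K27me3 alone. H3K27me3 covered a median of 80.39% of a region's length and covered 942 regions (36.15%) completely, while 114 regions were covered by less than 10%. H3K4me3 covered a median of 100.0% and all of 1431 regions. All 3 marks shared bases in 2452 regions, with a median of 800 bp, and in the other 154 the overlaps lay at different places. With an overlap of at least 50% of the shorter region, 2178 remained.

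The partner of a region was taken as the H3K27me3 or H3K4me3 region that shared most bases with it, and its reads were counted over its whole length, which can reach beyond the H3K27ac region. The 2606 regions had 2415 different H3K27me3 partners, of which 160 were shared by 351 regions, and 2320 different H3K4me3 partners, of which 232 were shared by 518 regions. The H3K27me3 partners had a median width of 1600 bp, against 950 bp for the other autosomal H3K27me3 regions. The 165 regions that shared at most 200 bp with H3K27me3 had a median H3K27ac change of 0.06 (log2, lamb minus fetus). The 491 regions left out because their nearest H3K27me3 region lay within 500 bp without overlap, 45 of them directly adjoining it, had a median of 0.045.

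The share of H3K27ac regions that carried all 3 marks differed between chromosomes, from 1.64% on chromosome 19 (43 of 2620) to 5.87% on chromosome 14 (126 of 2145). Chromosomes 20 and 21 held 5.29% and 5.15%. Of the 2606 regions, 1005 lay within 10 kb of another one and formed 379 clusters, and 1601 stood alone.

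Autosomal reads in regions ranged from 34565655 to 43695329 per H3K27ac library, from 4244517 to 5375459 per H3K27me3 library and from 11639736 to 53982507 per H3K4me3 library. Lambs 2 and 3 had the lowest H3K4me3 counts. Levels are given as CPM, the usual depth-scaled read count, taken over a library's autosomal reads with TMM scaling, and changes are log2 differences, lamb minus fetus, from edgeR's quasi-likelihood test over every region of a mark's table. A change is called where its Benjamini-Hochberg adjusted p over the table is under 0.05. With 2 animals against 2 an exact permutation test of 1 value cannot go below p = 0.333 (two-sided), and with 3 against 2 not below 0.2, so the calls rest on edgeR's pooling of the spread over regions.

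A small group stood apart in read density, taken from the mean CPM over all libraries of a mark. In 125 regions (4.8%), which lay on all 26 autosomes, the reads per kb were above the 99th percentile of the autosomal regions in all 3 marks, that is above 9.506 CPM per kb in H3K27ac, 13.419 in H3K27me3 and 18.768 in H3K4me3. Their median densities were 23.28, 46.49 and 55.17 CPM per kb in these marks, against autosomal medians of 6.106, 6.001 and 5.481, and the densest reached 14868.6 CPM per kb in H3K4me3. Of the 125, 19 lay within 100 kb of the start of a chromosome's coordinates. The input libraries have no values here, so the density of these regions in input was not tested. The group was defined after values had been seen, so it is described without a test, and results are given with it and for the other 2481 regions. The mean includes the lambs, so a region high in lambs alone can enter the group. The direction of its changes is therefore partly set by the choice.

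The regions took 5.843% and 4.778% of the autosomal H3K27ac reads in lambs 1 and 2, against 4.049% and 3.818% in fetuses 1 and 2, on 3.3% of the length of the autosomal H3K27ac regions. Their H3K27me3 partners took 11.563% and 10.157% of the reads in lambs, against 8.242% and 8.43% in fetuses. Their H3K4me3 partners took 21.648%, 30.263% and 29.652% in lambs, against 16.189% and 9.349% in fetuses. In every mark the lambs lay above the fetuses. The dense regions carried this difference in H3K27me3: their partners took 7.454% and 5.54% in lambs, against 2.894% and 2.882% in fetuses, while the partners of the other regions took 4.108% and 4.617% in lambs, against 5.348% and 5.548% in fetuses.

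**Figure D1:**
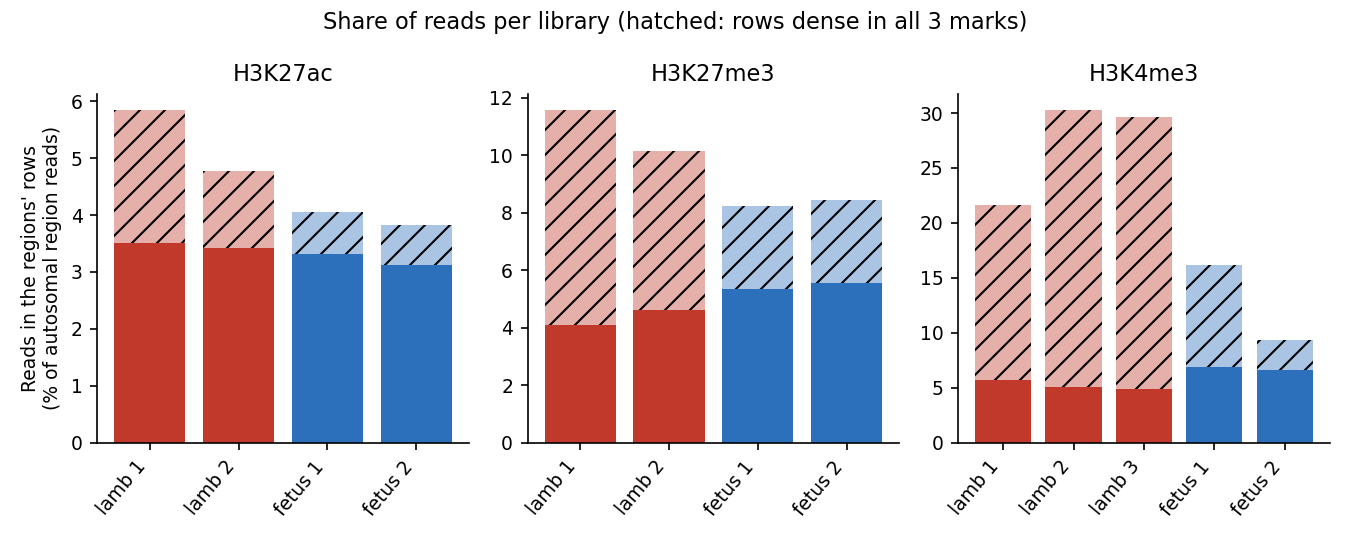
Percent of each library's autosomal reads (y axis) that fell in the regions or their partner rows, for each library (x axis), with the part from the dense regions hatched. Outside the dense regions, the H3K27me3 and H3K4me3 shares were lower in every lamb than in every fetus. The H3K27ac shares of 3.502% and 3.417% in lambs were above the 3.317% and 3.13% in fetuses. All shares are of reads that include the dense regions, so a larger dense part lowers the rest. In H3K4me3 the dense part was 15.968%, 25.16% and 24.73% in lambs, against 9.324% and 2.75% in fetuses. The lower H3K4me3 shares of lambs therefore do not show less signal at the other regions.

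H3K27ac was higher in lambs at more of these regions than it was lower. It rose in 358 regions (13.7%) and fell in 204 (7.83%), with a median change of 0.15. Over all 86245 autosomal H3K27ac regions tested, 4.41% were higher and 9.45% were lower in lambs, with a median of 0.005, so the balance of calls ran the other way. H3K27ac regions with H3K4me3 alone had 2.28% higher and 14.7% lower with a median of -0.10, those with H3K27me3 alone had 8.31% and 7.47% with a median of 0.10, and those with neither had 5.15% and 6.36% with a median of 0.06. Both lambs lay above both fetuses in 39.8% of the regions and below both in 20.9%, against 29.3% and 30.1% of all autosomal H3K27ac regions. Without the dense regions, 253 (10.2%) were higher and 202 (8.14%) lower, with a median of 0.13. The number of calls, 562 in all, was 254 without lamb 1, 355 without lamb 2 and 1203 without fetus 1, with more gains than losses each time. The median was 0.05 without fetus 2.

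The more of a region H3K27me3 covered, the larger was the median H3K27ac change. In regions covered by less than 10% the median was -0.15, with 4 (3.51%) higher and 16 (14.0%) lower. From 10% to under 50% coverage it was 0.01, with 22 (3.27%) higher and 95 (14.1%) lower. From 50% to under 100% it was 0.14, with 75 (8.54%) higher and 57 (6.49%) lower. In the 942 regions covered completely it was 0.33, with 257 (27.3%) higher and 36 (3.82%) lower, and 109 of the 125 dense regions were among these. The 154 regions in which the 3 marks shared no bases had 4 (2.6%) higher and 27 (17.5%) lower. Over all autosomal H3K27ac regions 4.41% were higher and 9.45% lower, and over those with H3K4me3 alone 2.28% and 14.7%. Coverage is a share of length, and these groups were not matched for width.

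The named H3K27ac gains were mostly dense regions. The region chr11:58261201-58262250 had 383.0 and 180.0 CPM in lambs, against 71.37 and 57.7 CPM in fetuses (log2 change 2.12, SE 0.24, edgeR adjusted p = 0.000156). At the end of the same chromosome, chr11:2651-3350 had 778.7 and 277.6 CPM in lambs, against 151.7 and 106.2 CPM in fetuses (2.03). In both regions lamb 1 was above lamb 2, and both lambs were above the fetuses. The dense region chr9:273001-273750 followed with 48.61 and 20.88 CPM in lambs, against 10.22 and 7.61 CPM in fetuses. Outside the dense group the largest gain was at chr3:119002501-119003300, which had 6.251 and 10.56 CPM in lambs, against 2.184 and 2.127 CPM in fetuses (1.96, SE 0.25, edgeR adjusted p = 0.00038). Here lamb 2 was the higher lamb.

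The fifth of these gains, chr16:31613501-31615250, went with fewer H3K27me3 reads in lambs. Its H3K27ac was 82.75 and 44.75 CPM in lambs, against 16.6 and 16.58 CPM in fetuses. Its H3K27me3 partner, 19550 bp wide, had 1850.0 and 2063 CPM in lambs, against 3265 and 3376 CPM in fetuses. The H3K27me3 values did not overlap between the stages but passed no threshold on their own (edgeR adjusted p = 0.138), whereas the difference between the changes of the 2 marks did (2.71, edgeR adjusted p = 0.00279).

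The H3K27ac losses were at sparser regions. The largest was at chr2:247021351-247022550, with 1.671 and 1.625 CPM in lambs, against 7.585 and 3.177 CPM in fetuses (log2 change -1.71, SE 0.35, edgeR adjusted p = 0.00626). Its H3K4me3 partner had 2.118, 4.013 and 4.282 CPM in lambs, against 40.89 and 9.531 CPM in fetuses (-2.90, edgeR adjusted p = 0.0164), a call that was lost without lamb 2 (adjusted p = 0.375). Fetus 1 was the highest library in both marks. The next losses were at chr1:67453601-67454400 (-1.68), chr1:88474301-88475700 (-1.50), chr1:50925701-50927600 (-1.39) and chr3:214972301-214974800 (-1.35).

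H3K27me3 moved the other way. Of 2581 regions whose partner was tested, it fell in 598 (23.2%) and rose in 85 (3.29%), with a median change of -0.57. Over all 82391 autosomal H3K27me3 regions tested, 4.57% were lower and 3.19% were higher in lambs, with a median of 0.01. Counted over the 2390 different partners tested, 558 were lower and 73 were higher. Both lambs lay below both fetuses at 58.7% of the regions and above both at 13.5%, against 27.7% and 28.9% of all autosomal H3K27me3 regions. H3K27me3 regions that overlapped no H3K27ac had a median of 0.03, with 3.82% lower and 3.22% higher, and the partners of H3K27ac regions with H3K27me3 alone had a median of -0.39.

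The median was negative in each group by mean level. With the autosomal H3K27me3 regions divided by mean CPM into 4 groups of equal size, from the lowest to the highest, the regions' partners had medians of -0.76, -0.54, -0.57 and -0.58, whereas the other H3K27me3 regions had 0.40, 0.19, 0.05 and -0.25. It was also negative at every degree of coverage: -0.66 in regions covered by less than 10%, -0.64, -0.62, and -0.46 in those covered completely. Without the dense regions 595 (24.2%) were lower and 37 (1.51%) higher, with a median of -0.61. The number of calls depended on single libraries: of 683 calls, 28 were left without fetus 2 and 30 without fetus 1, all of them lower, and 1343 were made without lamb 2, of which 1100 were lower. The median stayed between -0.62 and -0.54 when any 1 library was left out. With scaling from every region, chromosome X included, it was -0.28, while that of all autosomal H3K27me3 regions was 0.305.

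**Figure D2:**
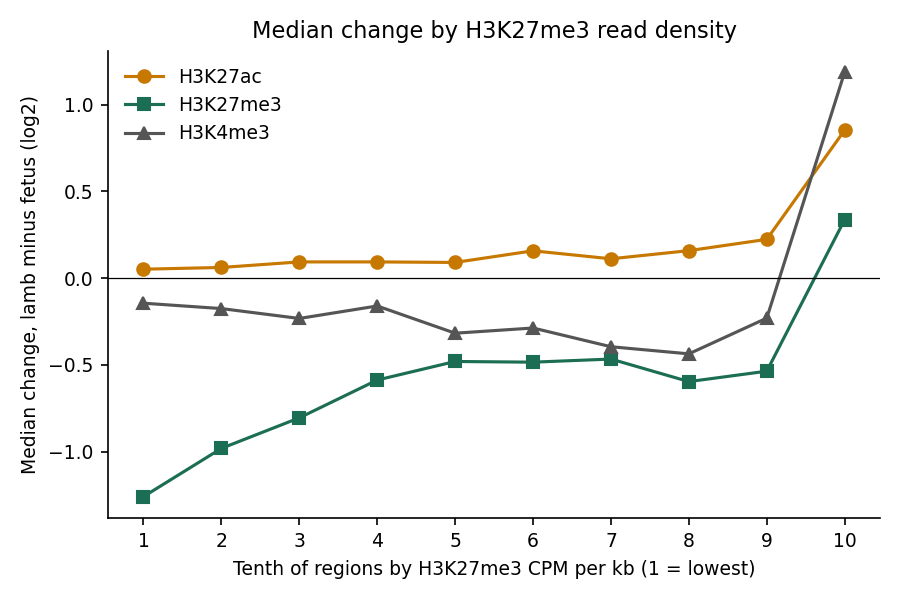
Median change (y axis, log2, lamb minus fetus) of each mark in 10 groups of equal size. The groups are ordered by the H3K27me3 reads per kb of their partner, as the mean over lambs and fetuses (x axis, 1 the lowest). H3K27me3 was lower in lambs in the first 9 groups, with medians from -1.26 to -0.47, and higher at 0.34 in group 10, which held 124 of the 125 dense regions and where H3K27ac reached 0.85 and H3K4me3 1.19.

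The largest H3K27me3 losses left few reads in lambs. The partner at chr4:94657201-94659850 had 1 read in each lamb, against 24 and 19 reads in fetuses, a scaled ratio of lambs to fetuses of 0.0459 (95% exact interval 0.00539 to 0.176, for counting error only). At chr12:2381301-2382200 the reads were 1 and 3 in lambs, against 35 and 20 in fetuses (ratio 0.0718), and at chr19:29893651-29896050 they were 1 and 2 in lambs, against 13 and 27 in fetuses (ratio 0.0741). H3K27ac at these 3 regions was close between the stages: at chr4:94657201-94659850 it was 21.66 and 22.28 CPM in lambs, against 19.96 and 19.52 CPM in fetuses.

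Better covered losses were at chr16:33695301-33699150 and chr12:31510551-31511550. The H3K27me3 partner of chr16:33695301-33699150 had 2.324 and 1.995 CPM in lambs, against 23.58 and 26.64 CPM in fetuses (log2 change -3.52, SE 0.40, edgeR adjusted p = 2.61e-08), and a second region, chr16:33699251-33700200, lies on the same partner. At chr12:31510551-31511550 H3K27me3 was 1.787 and 2.438 CPM in lambs, against 23.2 and 23.28 CPM in fetuses (-3.46, SE 0.41, edgeR adjusted p = 3.72e-08). Its H3K27ac was 4.327 and 6.221 CPM in lambs, against 5.66 and 5.945 CPM in fetuses, so those values overlapped. The 3 losses with few reads were no longer called without fetus 1 or without fetus 2, and these 2 better covered ones were.

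H3K27me3 gains outside the dense group were fewer. At chr16:23643201-23647700 the partner had 27.17 and 18.4 CPM in lambs, against 5.56 and 7.552 CPM in fetuses (log2 change 1.80, edgeR adjusted p = 0.0013). H3K27ac there was 43.75 and 39.99 CPM in lambs, against 44.2 and 40.05 CPM in fetuses, and overlapped. The largest gain, at chr22:46313951-46315450, was 6.792 and 4.212 CPM in lambs, against 0.7669 and 1.468 CPM in fetuses (2.30, SE 0.60, edgeR adjusted p = 0.00906). The second largest was at chr6:71693351-71695250 (1.86, edgeR adjusted p = 0.0428). The dense regions chr5:50411351-50412450 (1.77) and chr11:151-1800 completed the 5, the last with 2731 and 1564 CPM in lambs, against 619.8 and 666.4 CPM in fetuses (1.74). None of these 5 gains was called without fetus 1 or without fetus 2.

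**Figure D3:**
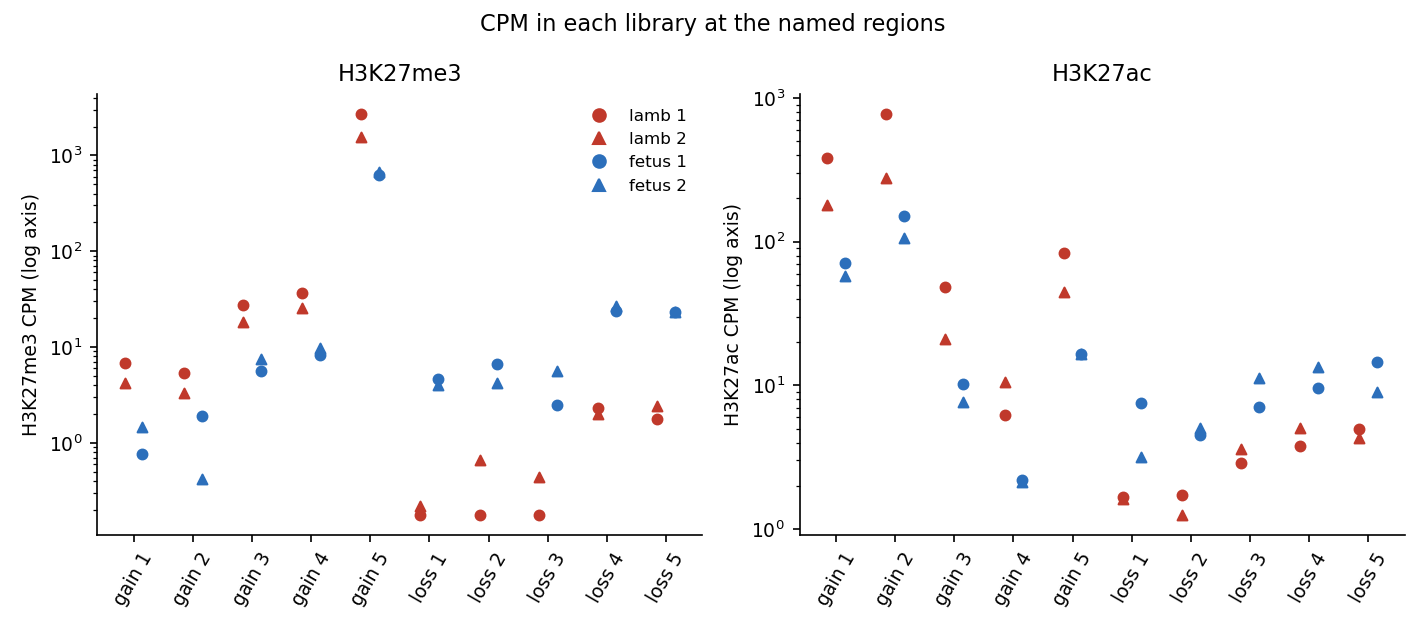
CPM in each lamb (left in each pair) and each fetus (right) on log y axes at the 5 regions with the largest gain and the 5 with the largest loss in H3K27me3 (left panel) and in H3K27ac (right panel). Gains and losses are each numbered on the x axis from the largest log2 change down. The lambs did not overlap the fetuses at any of them, which the choice of regions required.

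H3K4me3 changed at few regions. It rose in 56 (2.15%) and fell in 24 (0.921%), and its median was -0.18. Over all 56169 autosomal H3K4me3 regions, 1.22% were higher and 0.296% were lower in lambs, with a median of 0.11. This contrast followed the level: 1257 of the 2320 partners were among the highest of 4 equal groups by mean CPM, where they had a median of -0.50 and the other H3K4me3 regions had -0.67. From the lowest group upward, the first 3 had medians of 0.34, 0.37 and 0.085 for the partners and 0.25, 0.39 and 0.15 for the other regions. All 3 lambs lay below both fetuses at 35.6% of the regions and above both at 18.3%, against 19.5% and 24.1% of all autosomal H3K4me3 regions. The split of the calls is not firm: it was 222 higher and 383 lower with DESeq2, 3 and 10 with RLE size factors, and 2 and 7 with scaling from every region. Among the libraries, fetus 2 was far below fetus 1 at the dense regions, with 2.75% of its autosomal reads there, against 9.324%.

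The largest H3K4me3 gain was at chr3:21209351-21211250, with 2.597, 17.18 and 27.35 CPM in lambs, against 1.014 and 0.8683 CPM in fetuses (log2 change 4.04, edgeR adjusted p = 0.0167). Lamb 1 was much lower there than lambs 2 and 3. At chr5:37980351-37981600 it was 34.69, 30.74 and 19.49 CPM in lambs, against 5.942 and 4.539 CPM in fetuses (2.44, SE 0.36, edgeR adjusted p = 0.00856). H3K27ac rose at the same region, to 19.42 and 16.87 CPM in lambs, against 6.035 and 4.51 CPM in fetuses (1.78, SE 0.18, edgeR adjusted p = 7.6e-05).

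The remaining named H3K4me3 gains were at chr16:70919451-70920400 (3.52), chr7:22533401-22533950 (2.189) and chr7:22341851-22342900 (2.14). The losses, beside that at chr2:247021351-247022550, were at chr11:55350451-55351250 (-2.79), chr5:12159751-12160950 (-2.04), chr17:16847501-16850700 (-2.03) and chr8:83135101-83136100 (-1.91). At chr17:16847501-16850700, H3K4me3 was 23.45, 34.83 and 29.8 CPM in lambs, against 105.9 and 133.3 CPM in fetuses, and H3K27ac fell with it to 9.639 and 9.275 CPM in lambs, against 21.65 and 18.06 CPM in fetuses (-1.07, edgeR adjusted p = 0.00075). None of the named H3K4me3 calls passed without lamb 2.

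The difference between the changes of H3K27ac and H3K27me3 was tested directly, in 1 fit over the 8 libraries. The H3K27ac change was above the H3K27me3 change in 780 regions (29.9%) and below it in 69 (2.65%), with a median difference of 0.67. Over all 3798 autosomal pairs of an H3K27ac and an H3K27me3 region, 27.5% were above and 3.92% below. The 1192 pairs without H3K4me3 had 22.2% above and 6.71% below, with a median of 0.485, so the direction was not particular to regions with all 3 marks. The count of 849 was between 463 and 920 when any 1 library was left out, and between 433 and 823 of these were above. The fewest calls were made without H3K27me3 of lamb 1.

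The largest positive differences were at regions already described for H3K27me3, chr4:94657201-94659850, chr12:2381301-2382200 and chr19:29893651-29896050, followed by chr3:173127501-173128350 (3.80, not called without H3K27me3 of lamb 1 or of fetus 2) and chr16:33699251-33700200 (3.79, edgeR adjusted p = 7.67e-05). The largest negative difference was at chr2:247021351-247022550 (-3.45, edgeR adjusted p = 0.00766), where H3K27me3 had too few reads for a test of its own, with 3.932 and 1.995 CPM in lambs, against 1.15 and 0.6293 CPM in fetuses. That difference was not called without H3K27me3 of lamb 1 (adjusted p = 0.0872). The others were at chr3:36302351-36304350 (-2.25), chr3:214972301-214974800 (-2.195), chr22:46313951-46315450 (-2.16) and chr14:45196801-45203200 (-2.13). At chr14:45196801-45203200 H3K27me3 also had too few reads for a test of its own, and the difference was -0.826 without H3K27me3 of lamb 1 (edgeR adjusted p = 0.452). The differences at chr3:36302351-36304350 and chr22:46313951-46315450 were likewise not called without that library.

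For H3K27ac against H3K4me3, edgeR called 0 of the 2606 regions in either direction, with 531 at an unadjusted p under 0.05. The background was 0.0% of 33917 autosomal pairs. The median difference was 0.29. With the animal as a block, 3 regions passed, and without H3K4me3 of lamb 1 or of fetus 2, 527 and 462 passed.

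Taking the calls of separate marks together, H3K27ac was higher and H3K27me3 lower in 52 regions, and the reverse was found in 3. These were 2.01% and 0.116% of the 2581 regions tested in both marks. Over all 3748 autosomal pairs tested in both, of which these 2581 are part, the shares were 1.73% and 0.213%. Over the other 1167 pairs they were 1.11% and 0.428%. Both were higher in 60 regions (2.32%, against 1.71% of all pairs), of which 46 were dense, and both were lower in 38 (1.47%, against 1.09% of all pairs). Of the other 1167 pairs, 0.343% were higher in both marks and 0.257% lower in both. None of the 52 opposed regions was dense. H3K27ac and H3K4me3 were both higher in 34 regions (1.3%) and both lower in 12 (0.46%), where the shares over all 33917 autosomal pairs were 0.142% and 0.307%. Over the 31311 of these pairs without H3K27me3 the shares were 0.0447% and 0.294%. By sign alone, H3K27ac was up and H3K27me3 down in 1235 regions, both were up in 445, both down in 695, and H3K27ac was down and H3K27me3 up in 206. The count of 52 was 4 to 8 without either H3K27ac lamb or either H3K27me3 fetus, 89 without H3K27me3 of lamb 2 and 211 without H3K27ac of fetus 1.

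**Figure D4:**
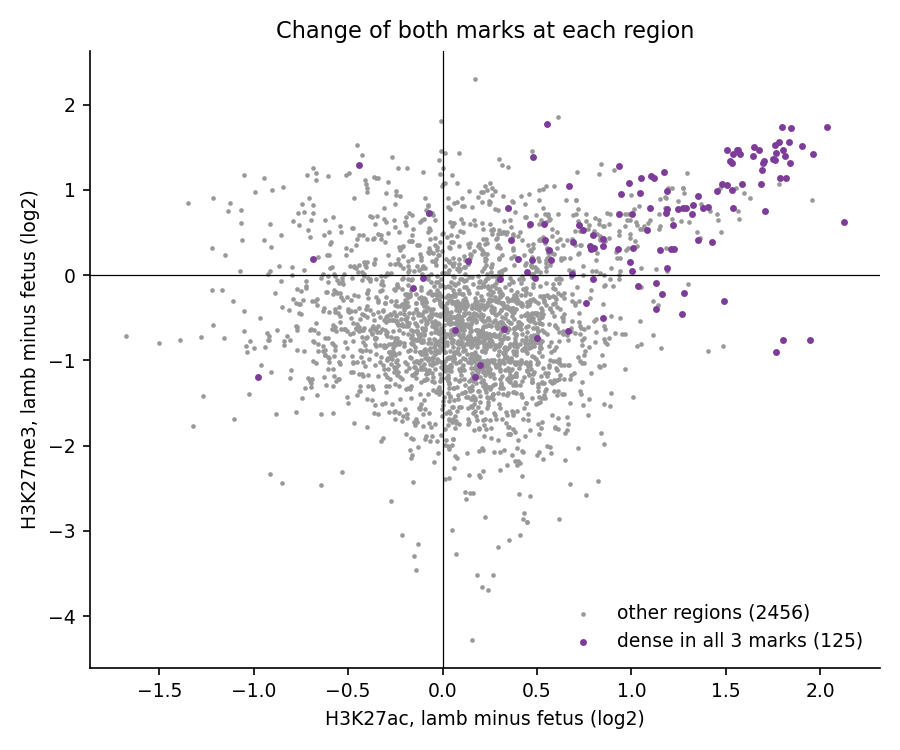
Change of H3K27me3 in the partner (y axis, log2, lamb minus fetus) against the change of H3K27ac (x axis) in the 2581 regions tested in both marks, with the 125 dense regions in purple. Most of the other 2456 regions lie below the horizontal line and close to the vertical one, and the dense regions lie mainly at the upper right.

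Among regions the changes of H3K27ac and H3K27me3 went together weakly, with Pearson's r = 0.199 and Spearman's rho = 0.118 over 2581 regions. Outside the dense group the values were 0.052 and 0.028 over 2456 regions, and within it 0.532 and 0.584 over 125. H3K27ac and H3K4me3 had r = 0.549 and rho = 0.444 over 2606 regions. The regions share the libraries, their depths and the animals, so these values are a description.

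The clearest opposed regions, chosen after their values were seen, were covered completely by H3K27me3. At chr24:33351001-33352600, H3K27ac was 15.73 and 11.21 CPM in lambs, against 9.628 and 7.943 CPM in fetuses (log2 change 0.62, edgeR adjusted p = 0.0386). H3K27me3 there was 4.111 and 5.32 CPM in lambs, against 38.54 and 29.79 CPM in fetuses (-2.86, edgeR adjusted p = 2.87e-07). The stages were well apart in H3K27me3 and closer in H3K27ac, whose call was lost without lamb 1 (adjusted p = 0.608), and the difference of the 2 changes was 3.49 (edgeR adjusted p = 0.000136). The regions chr18:41313851-41314450, chr1:260871801-260872600, chr3:2799301-2800350 and chr3:210642751-210643450 followed, with H3K27ac changes of 0.82, 0.85, 0.65 and 0.72 and H3K27me3 changes of -2.42, -1.98, -2.17 and -2.03. The H3K27ac calls of all 4 were lost without lamb 1. The H3K27me3 calls at chr1:260871801-260872600 and chr3:210642751-210643450 were lost without fetus 1 or without fetus 2. That at chr3:2799301-2800350 was lost without fetus 1.

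The 3 regions with lower H3K27ac and higher H3K27me3 were chr22:33489251-33492400, chr26:31853651-31856900 and chr8:16361501-16364650. H3K27me3 covered 12.7%, 12.3% and 1.59% of them, so the changes lay largely on different bases. At chr26:31853651-31856900, H3K27ac was 14.22 and 11.74 CPM in lambs, against 21.23 and 20.19 CPM in fetuses, and H3K27me3 was 21.63 and 18.84 CPM in lambs, against 9.586 and 7.971 CPM in fetuses. Both marks separated the stages at this region. The H3K27me3 calls of all 3 regions did not hold without fetus 1 or without fetus 2, where the changes were 1.071 to 1.342. The H3K27ac call at chr26:31853651-31856900 did not hold without lamb 2 (change -0.54), and that at chr8:16361501-16364650 did not hold without lamb 1 (-0.576).

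In the dense group, H3K27ac was higher in lambs in 105 of 125 regions and lower in 2, with a median of 1.16, and H3K27me3 was higher in 48 and lower in 3, with a median of 0.71. The median of H3K4me3 was 1.30, and 1 region passed its test. These values are a description, since the group was chosen by means that include the lambs. The most reads per kb were at chr20:49973951-49974900, where H3K27ac was 3508 and 1409 CPM in lambs, against 747.7 and 568.2 CPM in fetuses. Its H3K27me3 was 11060.0 and 7088 CPM in lambs, against 3131 and 3214 CPM in fetuses, and its H3K4me3 was 37590.0, 43820.0 and 45050.0 CPM in lambs, against 14330.0 and 4186 CPM in fetuses. The same order of libraries, lamb 1 above lamb 2 in H3K27ac and H3K27me3 and fetus 2 lowest in H3K4me3, was found at chr9:20681651-20683100 and chr18:13168801-13169450.

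All 3 marks were called at 6 regions, 4 of them higher and 2 lower in lambs. At chr2:144247351-144250750, a dense region of 3400 bp, H3K27ac was 118.9 and 131.4 CPM in lambs, against 33.3 and 50.81 CPM in fetuses (log2 change 1.57). H3K27me3 was 135.1 and 239.6 CPM in lambs, against 50.81 and 88.94 CPM in fetuses (1.42). H3K4me3 was 99.99, 308.1 and 117.7 CPM in lambs, against 46.55 and 39.56 CPM in fetuses (2.025, edgeR adjusted p = 0.0491). The regions chr1:65694651-65696650, chr21:31194151-31195000 and chr13:16657251-16658150 were higher in all marks too. At chr6:86088451-86092100 the changes were -0.51 in H3K27ac, -1.43 in H3K27me3 and -1.61 in H3K4me3. The H3K27me3 calls of these 5 regions were lost without either fetus and the H3K4me3 calls without lamb 2.

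The largest clusters differed in direction, and single regions within a cluster went both ways in some marks but not in others. The largest, chr3:132312551-132385750, held 20 regions in 73.2 kb, and the sum over them was 345.2 and 352.1 CPM of H3K27ac in lambs, against 428.6 and 383.2 CPM in fetuses. Its median changes were -0.115 in H3K27ac, -0.31 in H3K27me3 and -0.50 in H3K4me3, with single regions from -0.668 to 0.307 in H3K27ac, and 2 of its regions were called, both lower in H3K27ac. At chr8:73849901-73905950, 13 regions in 56.05 kb summed to 630.1 and 494.0 CPM of H3K27ac in lambs, against 241.4 and 205.2 CPM in fetuses, and 11 of them were called higher. H3K27me3 over the same cluster summed to 1111 and 1032 CPM in lambs, against 641.1 and 698.9 CPM in fetuses, with 4 called higher, so the sums of both marks were higher in lambs although none of the 13 regions was dense. Single regions of that cluster ranged from -0.258 to 1.024 in H3K27me3. Their changes were all positive in H3K27ac, from 0.275 to 1.598, and in H3K4me3, from 1.034 to 1.711.

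The cluster chr7:22596851-22653600 also held 13 regions. Its H3K4me3 summed to 150.2, 622.2 and 431.1 CPM in lambs, against 89.58 and 171.6 CPM in fetuses, with a median change of 1.69 and 3 regions called higher. Animal 2 was the higher of each stage in all 3 marks: H3K27ac summed to 202.8 and 315.2 CPM in lambs, against 116.2 and 251.8 CPM in fetuses, and H3K27me3 to 428.4 and 998.6 CPM in lambs, against 361.2 and 783.5 CPM in fetuses. The stages overlapped in these sums, and 2 of the H3K4me3 gains named above, at chr7:22341851-22342900 and chr7:22533401-22533950, lie at lower coordinates of the same chromosome.

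Of the 5 widest regions, 4 were covered by H3K27me3 over 3.89% to 7.03% of their length, and chr2:164355251-164371200 over 26%. At chr1:196574601-196593900, 19300 bp wide and 3.89% covered by H3K27me3, H3K27ac was 100.7 and 102.2 CPM in lambs, against 159.4 and 167.1 CPM in fetuses (log2 change -0.69, edgeR adjusted p = 0.000809). H3K27ac fell as well at chr2:164355251-164371200 (-0.56) and chr1:197810701-197828700 (-0.48), the last of which was not called without lamb 1 or without lamb 2. At chr2:16177701-16196900 it was 155.6 and 157.8 CPM in lambs, against 186.4 and 182.3 CPM in fetuses, and at chr13:73177151-73191850 it was 102.7 and 97.63 CPM in lambs, against 135.4 and 102.7 CPM in fetuses, and neither was called.

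Region tables carry no gene names, and only 1454 promoter names in the files carry coordinates, of which 3 overlap a region. One is HOXA5, a homeobox gene of positional identity, whose interval on chromosome 4 from 68876467 to 68891655 overlaps the region chr4:68872051-68881550. H3K27ac there was 55.73 and 57.05 CPM in lambs, against 102.0 and 78.05 CPM in fetuses (log2 change -0.68, SE 0.13, edgeR adjusted p = 0.00441), and H3K27me3 covered 9.47% of it, with 4.29 and 5.32 CPM in lambs, against 6.518 and 5.244 CPM in fetuses. The other two intervals are named U6 and U1, after small nuclear RNAs that occur in many copies. At the region of U1, chr1:98665851-98666900, the difference of the H3K27ac and H3K27me3 changes was 1.18 (edgeR adjusted p = 0.0272), a call that was lost without any of 5 single libraries.

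The promoter tables name the genes but not the places, so the same combination of marks was looked at by gene, without a link to the regions. Their values are a scaled signal, rescaled here and tested with limma on log2(value + 1), which understates the changes of low promoters. The 1910 promoters listed in all 3 tables had higher H3K27ac in lambs at 436 (22.8%) and lower at 167 (8.74%), with a median of 0.26. Over all 13222 promoters of the H3K27ac table, 11.4% were higher and 17.7% lower. H3K27me3 was higher at 24 (1.26%) and lower at 277 (14.5%), with a median of -0.32, where 4.42% were higher and 8.83% lower over the 6334 promoters of that table. H3K4me3 was higher at 94 (4.92%) and lower at 20 (1.05%), where 8.33% and 1.9% were over 12922 promoters. These splits depend on single libraries and on the scaling. For H3K27ac the split turned round without lamb 1, with 41 higher and 81 lower, and without lamb 2, with 60 higher and 94 lower. With the authors' scaling, which puts the median of all H3K27ac promoters at -0.30 and of all H3K4me3 promoters at -1.28, H3K27ac was higher at 65 and lower at 307, and H3K4me3 was higher at 7 and lower at 750. The median over the promoters in all 3 tables lay 0.24 above that of all H3K27ac promoters under either scaling.

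At 115 of these promoters H3K27ac was higher and H3K27me3 lower in lambs, at 2 the reverse, at 4 both were higher and at 8 both were lower. These were 6.02%, 0.105%, 0.209% and 0.419% of the 1910. Over the 2297 promoters listed in both the H3K27ac and the H3K27me3 table, of which these 1910 are part, the shares were 5.09%, 0.218%, 0.305% and 0.392% in the same order. Over the other 387 promoters they were 0.517%, 0.775%, 0.775% and 0.258%. GSN, which encodes the actin-severing protein gelsolin, had an H3K27ac signal of 270.9 and 255.8 in lambs, against 188.0 and 190.8 in fetuses (log2 change 0.47, limma adjusted p = 0.0169). Its H3K27me3 signal was 36.03 and 8.244 in lambs, against 191.6 and 181.8 in fetuses (-3.34, limma adjusted p = 0.00172), well apart between the stages. PSMB9, a subunit of the immunoproteasome, had H3K27ac of 247.5 and 204.5 in lambs, against 143.1 and 101.9 in fetuses, and H3K27me3 of 22.93 and 37.1 in lambs, against 127.7 and 131.3 in fetuses. FXYD5, a regulator of the sodium pump, SERPINB1, an inhibitor of neutrophil proteases, and SLAIN1, a microtubule-binding protein, were the others, with H3K27ac changes of 0.55, 0.63 and 0.99 and H3K27me3 changes of -2.14, -2.03 and -1.61.

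The H3K27ac calls of all 5 were lost without lamb 1 and their H3K27me3 calls without lamb 2. With the authors' scaling the H3K27ac calls of GSN, FXYD5 and SERPINB1 were lost. The 2 promoters with lower H3K27ac and higher H3K27me3 were HIST1H2BG, a histone H2B gene (-0.43 and 1.38), and ENSOARG00000010694, to which the files give no name (-1.25 and 1.445). ENSOARG00000005887 (2.03 and 3.24) and RBP5, a retinol-binding protein (0.59 and 1.02), were higher in both marks. For ENSOARG00000005887 the H3K27me3 signal was 114.6 and 218.5 in lambs, against 63.85 and 3.366 in fetuses. Its H3K27me3 change was 1.296 without fetus 2 (limma adjusted p = 0.273), and its H3K27ac call was lost without either lamb. Both calls of RBP5 were lost with the authors' scaling. The count of 115 was 20 with the authors' scaling, 31 or 16 without a fetus in H3K27me3, 18 or 13 without a lamb in H3K27ac, and 0 without lamb 2 in H3K27me3. The H3K27me3 calls of HIST1H2BG and ENSOARG00000010694 were lost without lamb 2 as well. HIST1H2BG belongs to a family of near-identical genes, so its reads may be split among copies.

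Developmental regulators, the classical carriers of bivalent chromatin, were looked at from a list of 30, of which 22 were in all 3 tables. Their H3K27ac was higher at 2 and lower at 9, with a median of -0.40, beside 11.4% higher and 17.7% lower over all promoters and 22.8% and 8.74% over the promoters in all 3 tables. Their H3K27me3 was lower at 7, beside 8.83% over all promoters and 14.5% over those in all 3 tables, with a median of -0.45. It was higher at 0 with limma, also at an unadjusted p under 0.05, and at 0 with edgeR on whole reads. By limma 4.42% were higher over all promoters and 1.26% over those in all 3 tables, so 0 of 22 is near the background. TBX18, a T-box factor of mesenchymal and fat precursors, fell in both marks: H3K27ac was 178.7 and 172.6 in lambs, against 373.3 and 388.4 in fetuses (-1.11, limma adjusted p = 2.36e-05), and H3K27me3 was 219.5 and 267.9 in lambs, against 423.4 and 407.3 in fetuses (-0.77, limma adjusted p = 0.0291). LHX8, a LIM homeobox factor, also fell in both (-0.996 and -0.948). MEIS1, a partner of HOX proteins, had the largest H3K27ac fall of the list, to 170.7 and 204.0 in lambs, against 421.9 and 466.5 in fetuses (-1.245, limma adjusted p = 1.34e-05), while its H3K27me3 was 196.5 and 160.8 in lambs, against 158.0 and 212.1 in fetuses, and overlapped.

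The HOX genes HOXA9 (-1.01), HOXD8 (-0.96), HOXC10 (-0.68) and HOXC6 (-0.61), with GATA6 (-0.58) and EN1 (-0.50), fell in H3K27ac, and their H3K27me3 did not pass the test. HOXD8 H3K27me3 was 22.93 and 45.34 in lambs, against 53.77 and 87.52 in fetuses, and did not overlap. HOXA9, HOXC6 and EN1 H3K27me3 was likewise lower in lambs without overlap. GATA6 went the other way without overlap, with H3K27me3 of 157.2 and 131.9 in lambs, against 90.74 and 114.5 in fetuses. OSR2 and PAX3, both transcription factors of embryonic patterning, rose in H3K27ac, OSR2 to 77.27 and 107.7 in lambs, against 36.12 and 18.12 in fetuses (1.79, limma adjusted p = 0.00229). PAX3 rose to 112.1 and 87.87 in lambs, against 44.46 and 48.12 in fetuses (1.085, limma adjusted p = 0.00959), and its H3K27me3 fell (-0.585), which made it the 1 gene of the list with opposite calls. SHOX2 (-0.66), IRX5 (-0.98), PITX1 (-0.92) and OSR1 (-0.75) fell in H3K27me3, and their H3K27ac did not pass the test. In H3K4me3, limma called 0 of the 22 in either direction, with 2 higher and 7 lower at an unadjusted p under 0.05 and 0 by edgeR on whole reads, and the median was -0.23. All 7 H3K27me3 calls of the list were lost without lamb 2, as was the H3K27ac call of OSR2, and those of PAX3, GATA6 and EN1 were lost without either lamb. The H3K27ac call of HOXC10 was lost without lamb 1. The H3K27me3 call of PAX3 was lost whichever single H3K27me3 library was left out. With the authors' scaling both calls of PAX3 and the H3K27me3 calls of TBX18 and SHOX2 were lost.

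**Figure D5:**
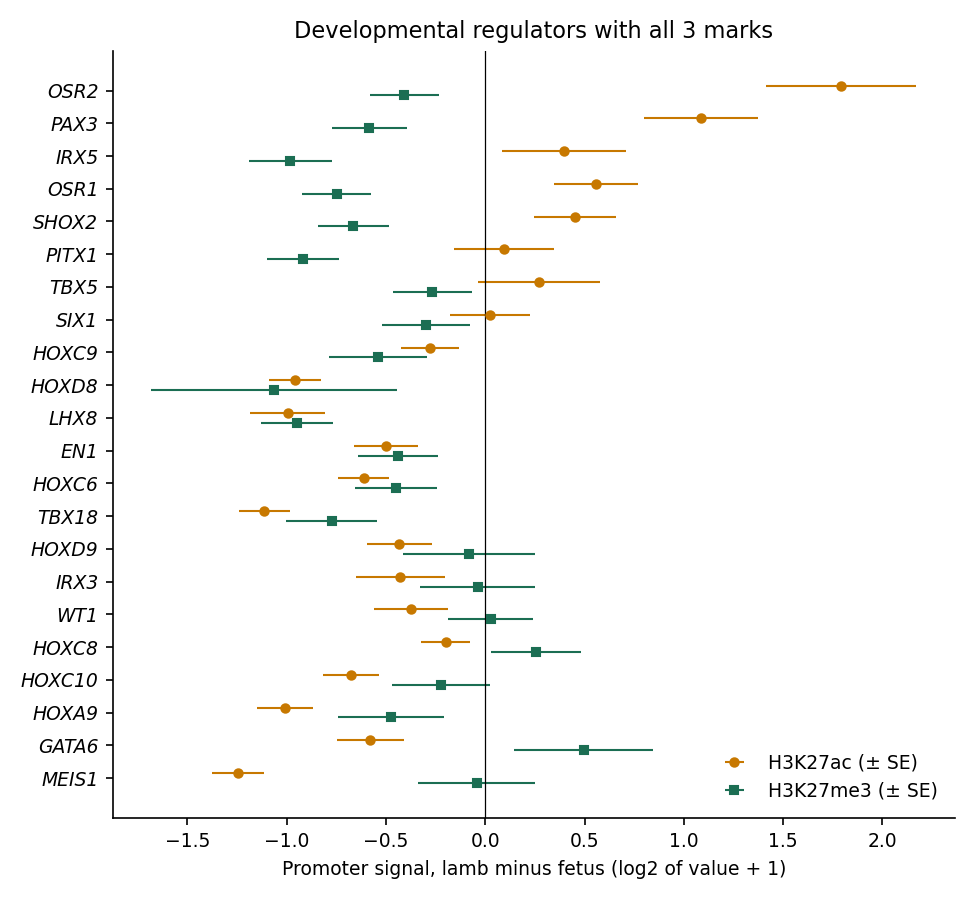
Change of the promoter signal (x axis, log2 of value + 1, lamb minus fetus, with its SE) in H3K27ac (orange) and H3K27me3 (green) for the 22 developmental regulators in all 3 promoter tables, ordered from the highest to the lowest H3K27ac minus H3K27me3 difference. OSR2, at 1.79, and PAX3 are the only 2 with a called H3K27ac gain, and H3K27me3 lies left of 0 in 19 of the 22.

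The H3K27ac promoters of cell type markers differed between the stages beside these results. Of 7 adipocyte markers 6 were measured, with a mean signal of 260.8 and 260.6 in lambs, against 383.4 and 453.9 in fetuses, and the 4 brown fat markers averaged 171.9 and 183.7 in lambs, against 280.3 and 307.0 in fetuses. The 5 markers of stroma averaged 174.1 and 195.8 in lambs, against 255.7 and 309.3 in fetuses, and 4 of 6 lymphocyte markers averaged 191.4 and 158.1 in lambs, against 95.2 and 81.7 in fetuses. For macrophages 3 of 5 markers averaged 224.0 and 216.7 in lambs, against 242.7 and 238.3 in fetuses, and for endothelium 3 of 4 averaged 293.2 and 268.7 in lambs, against 333.9 and 353.6 in fetuses. For adrenal gland 3 of 4 markers averaged 220.1 and 226.8 in lambs, against 200.5 and 198.5 in fetuses. For skeletal muscle 2 of 4 averaged 152.4 and 154.8 in lambs, against 136.4 in fetus 1 and 244.0 in fetus 2. The medians over all promoters were 192.7 and 193.0 in lambs, against 186.2 and 188.0 in fetuses. The part of cell composition in the results was not tested.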

How the data were processed

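Histone ChIP-seq of perirenal fat was measured in 2 lambs and 2 fetuses for H3K27ac and H3K27me3 and in 3 lambs and 2 fetuses for H3K4me3. Chromatin was cut with micrococcal nuclease and sequenced as 50 bp single reads, per the labels' protocols, and mapped to Oar_v3.1 with CLC Genomics Workbench 7.0, per the series' design text. bedtools 2.19.0, edgeR and MACS are named without a role, per the submitters' processing notes. The deposited region tables hold the authors' raw read counts per region, and the deposited promoter tables hold a scaled signal per gene from the authors. The sources used here do not say how regions of the 2 stages were merged. The input libraries are pools with no values in these tables. Genes at the regions and sequences were not analysed here, since no genome of that build was used.

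Counts were tested with edgeR 4.0.16 (quasi-likelihood, TMM factors from autosomal regions) in R 4.3.3, and adjusted p-values run over each whole table. Differences between marks were fitted in 1 model over both marks' libraries. Promoter signal was rescaled by TMM and tested with limma 3.58.1 on log2(value + 1). As the signal steps in whole reads within 0.1 reads for 99.969% or more of the values of a library, edgeR was also run on those reads, an alternative chosen after seeing the data. It called 601 promoters in all 3 tables for H3K27ac, 308 for H3K27me3 and 153 for H3K4me3. The edgeR test of each mark, the fit of H3K27ac with H3K27me3 and limma on the H3K27ac promoters were run on simulated data with known changes. The fit of H3K27ac with H3K4me3 and the alternatives were not. The simulated counts had a fixed spread, so they do not show how the tests do at the spread between these animals. DESeq2 1.42.0, other scalings, filters and left-out libraries were tried as alternatives.

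Animal identifiers pair the libraries of animals 1 and 2 across marks. Replicates are separate animals by these identifiers. Named regions are, per mark, the 5 largest gains and losses among called regions without overlap of the stages, the 5 largest differences between H3K27ac and H3K27me3 each way, up to 5 called in all marks, the 5 widest and the 3 largest clusters. Named promoters are the 5 largest differences each way among those called in both marks, and the developmental list. The regions and lists were chosen with earlier results of these data known. Intervals cover counting error only, since reads carry no molecular identifiers.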

Additional observations from a re-analysis of the deposited data

Results flagged for a closer look

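Regions on chromosome X entered the fits and the adjustment of p-values but not the scaling or the regions described, and their share of the H3K27me3 reads in regions differed between libraries: it was 29.69% in lamb 1 and 41.32% in lamb 2, against 49.5% in fetus 1 and 48.72% in fetus 2. These shares stand here because they are a signal in data outside the regions described. Sex is not in the labels. With autosomal regions alone fitted, 963 H3K27me3 calls were made among the regions, against 683 with chromosome X in the fit.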

How the results depend on the processing

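No median change over the regions changed sign in any setting tried: H3K27ac ranged from 0.05 to 0.24, H3K27me3 from -0.615 to -0.278, H3K4me3 from -0.358 to -0.13, H3K27ac minus H3K27me3 from 0.57 to 0.76 and H3K27ac minus H3K4me3 from 0.217 to 0.458. Counts moved more. With 1 library left out, H3K27ac calls ranged from 254 to 1203, H3K27me3 calls from 28 to 1343, H3K4me3 calls from 0 to 663, opposed regions from 4 to 211, H3K27ac minus H3K27me3 from 463 to 920 and H3K27ac minus H3K4me3 from 0 to 527, and promoters from 122 to 1031 in H3K27ac, 0 to 462 in H3K27me3, 2 to 648 in H3K4me3 and 0 to 175 for opposed ones.

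The replicate numbers name different animals in the 2 stages, and the correlation of same-numbered deviations was 0.292, 0.078 and -0.11 in H3K27ac, H3K27me3 and H3K4me3. With the replicate block, H3K27ac had 1044 calls, H3K4me3 10, opposed regions 136 and H3K27ac minus H3K4me3 3; the crossed pairing gave 363 in H3K4me3. DESeq2 gave 605 H3K4me3 calls and 26 opposed regions, RLE size factors 13 H3K4me3 calls, autosomal regions alone 47, scaling from every region 9, and library size alone 435 H3K27me3 calls. H3K4me3 had 387 calls without fetus 2, 375 without lamb 1 and 0 without lambs 2 and 3 (edgeR). With the deposited scaling there were 372 H3K27ac, 757 H3K4me3 and 20 opposed promoters, and H3K27ac had 122 without lamb 1 and 154 without lamb 2. The cause was not tested. The 148 named called values gave 1738 combinations of a value and a setting. None of these reversed, and in 259 of them the call was lost. H3K27me3 had the fewest reads, which limits its weaker regions.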
